A study of Mus musculus with 16 samples.

Results

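The genes described here are 37 mouse genes of glycolysis, the conversion of glucose to pyruvate and lactate, and of the cellular response to low oxygen. They were chosen by a list of gene symbols matched to the array's platform annotation. Of the 37 listed genes, 34 were measured by a probe set with that single symbol, among 19938 genes measured in all. The isomerase Gpi1 and the enolase Eno1 had no probe set with their symbol in the annotation used here. The dehydrogenase Gapdh was named only on 25 probe sets that carry several symbols, so these 3 genes have no values below. Each gene is represented by its probe set with the highest mean over all arrays.

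Total RNA was taken from 2 mouse CD8 T cell clones, a conventional one labelled as sensitive to cyclosporine and an unconventional one labelled as resistant, and hybridised to Affymetrix whole-transcript arrays. All cells had been grown with a mixture that held IL-1a, IL-6, IL-7, IL-15, TNF-α and interferons and were then activated with immobilized anti-CD3, an antibody that engages the antigen receptor, in RPMI that lacked recombinant cytokines. In 2 of the 4 groups cyclosporine A was present at 1 ug per ml, and each group held 4 arrays, 16 in all. Cyclosporine A with cyclophilin blocks the phosphatase calcineurin and thereby the NFAT transcription factors. Each clone is the progeny of a single cell, so a difference between the clones is one between these lines and not between classes of T cell. No unstimulated cells were analysed here, and a difference with the drug is therefore one between activated cultures. Whether replicates were separate cultures is not stated in the labels, and the p-values therefore measure only the spread between these arrays, which may be technical.

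A T cell activated through its receptor takes up more glucose and turns much of it into lactate even when oxygen is plentiful. The transcription factor HIF-1, a dimer of HIF-1α (Hif1a) and ARNT, raises many genes of this route. Its α subunit is hydroxylated by the oxygen-dependent EGLN enzymes, bound by the VHL protein and degraded, so the protein accumulates when oxygen is low. In T cells the Hif1a transcript itself is also raised by receptor signals, and HIF-1 and MYC share many glycolytic targets.

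Levels are log2 expression values as deposited, on which a difference of 1 is a factor of 2. Pairs of arrays within a group had a Pearson correlation of 0.995 to 0.998 across 28853 probe sets. Among CD8 T cell markers, the CD3 chain Cd3g lay between 12.06 and 12.80 on all arrays. It was higher with the drug in the conventional (0.45) and the unconventional clone (0.54), as were Cd3d (0.22 and 0.40) and Cd3e (0.37 and 0.32). The chain Cd247 changed with the drug by 0.11 (not called) and -0.26 (adjusted p = 0.0033). Cd247 was also lower in the unconventional clone without (-0.69) and with the drug (-1.06). Cd8b1 lay between 10.12 and 12.36 and was lower in the unconventional clone without (-2.08) and with the drug (-2.04). Cd8a averaged 12.50 and 11.92 in the conventional clone without and with the drug and 10.31 and 8.56 in the unconventional clone. The T cell surface genes Cd2 and Cd5 lay below the median gene (5.52), at 3.73 to 4.41 and 4.67 to 5.48. Of 4 CD4 T cell markers, 3 were below the median gene, and Cd4 stayed between 4.11 and 4.46. The exception, Zbtb7b, was higher with the drug in the conventional (0.47, adjusted p = 7.1e-05) and the unconventional clone (0.53, adjusted p = 3.2e-05). It was also higher in the unconventional clone without (0.34, adjusted p = 0.0016) and with the drug (0.40, adjusted p = 0.00031). All 5 measured B cell markers and all 6 erythroid and granulocyte markers were below the median gene. Of 8 macrophage and dendritic cell markers, 6 were below it, including Adgre1, Csf1r and Lyz2 at 3.41 to 4.51. The other 2 were Itgax and Cd68. The log2 of that list's summed level ranged from 9.47 to 9.62 without and 10.52 to 10.71 with the drug in the conventional clone, and from 9.92 to 10.26 and 10.61 to 10.87 in the unconventional clone. Of 10 epithelial and fibroblast markers, 4 were below the median gene. The log2 of their sum ranged from 10.25 to 10.63 without and 8.64 to 8.89 with the drug in the conventional clone, and from 8.80 to 9.40 and 9.76 to 10.2 in the unconventional clone. Lum went from 9.87 to 4.16 with the drug in the conventional clone and Cdh1 from 7.12 to 9.22 in the unconventional clone, with Epcam at 4.13 to 4.47 throughout. The part of these markers in the results below was not tested. In such bulk samples fewer cells of a type and less RNA per cell cannot be told apart.

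Most of the 34 genes were bright, and 32 of them had a mean at or above the median gene. Ldha, lactate dehydrogenase A, was the brightest probe set at a mean of 13.58. The lactate dehydrogenase subunit Ldhb (4.67) and the collagen prolyl hydroxylase subunit P4ha2 (4.78) were the 2 below it, where a change could hardly have been seen. Brightness of different probe sets is not a measure of relative abundance.

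**Figure D1:**
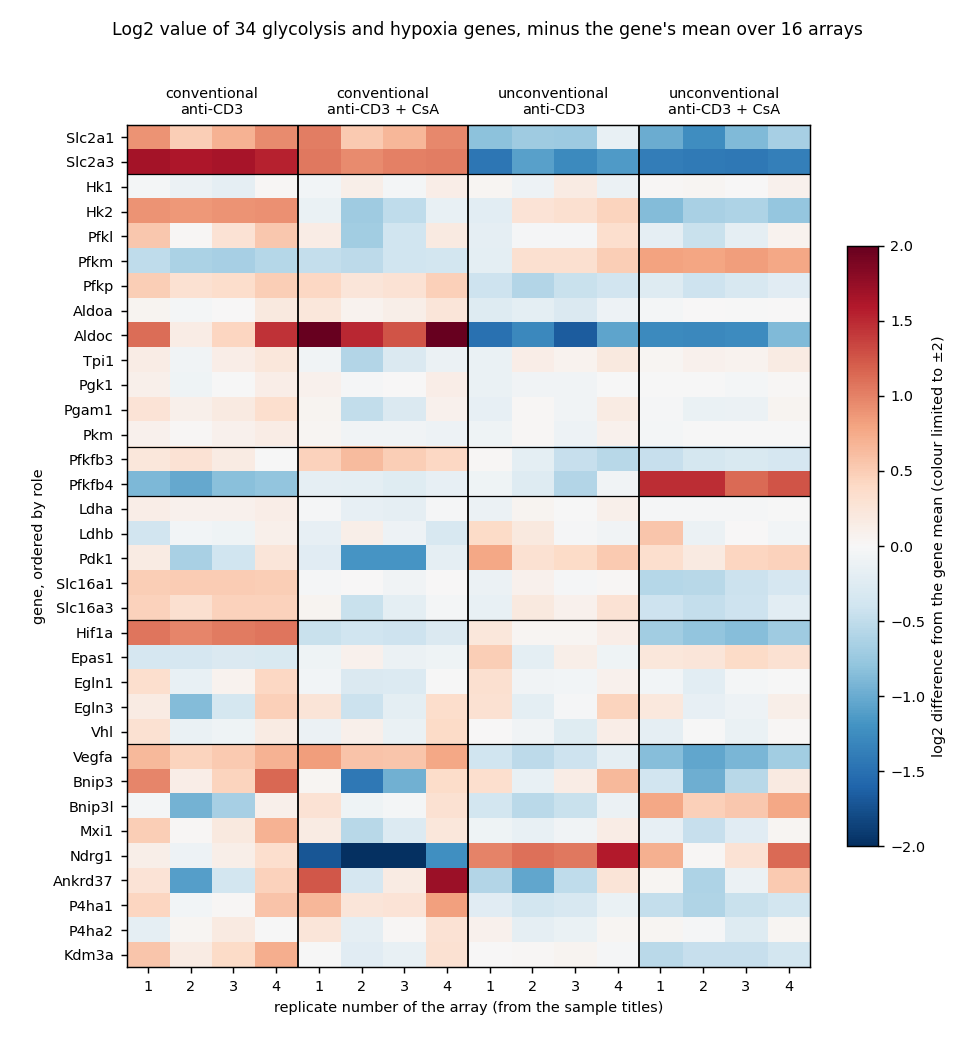
Log2 value of each of the 34 measured genes (rows, ordered by role) on each of the 16 arrays (columns, in 4 groups with their replicate number), minus the gene's mean over all arrays. Hif1a and Hk2 are lower in both groups with cyclosporine A, Pfkfb4 is higher in both, and Slc2a1, Slc2a3 and Aldoc separate the clones. Several hypoxia genes are lowest on the array numbered 2 in all 4 groups.

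The first question was what cyclosporine A changed among these genes in each activated clone. In the conventional clone 14 of 34 genes (41.2%) were lower with the drug and 4 (11.8%) were higher, against 15.5% and 15.9% of all genes, or 31.4% in either direction. In the unconventional clone 7 (20.6%) were lower and 4 (11.8%) higher, against 12.3% and 12.6% of all genes, or 24.9% in either direction. The median change of the 34 genes was -0.04 and -0.06, beside 0.02 in both clones for all genes. Falls called in both clones included the oxygen-regulated factor Hif1a, the hexokinase Hk2, both lactate transporters and the HIF target Ndrg1, and Pfkfb4 and Bnip3l rose in both. The conventional clone's largest called changes were those of Ndrg1 and Hif1a downward and of the aldolase Aldoc upward. At least 2-fold calls numbered 4 falls in the conventional clone, where 2.69% of all genes fell so far, and 2 rises in the unconventional clone, where 2.30% of all genes changed so far. The 2 groups of arrays did not overlap for 11 of the 34 genes in each clone (30.5% and 27.2% of all genes).

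**Figure D2:**
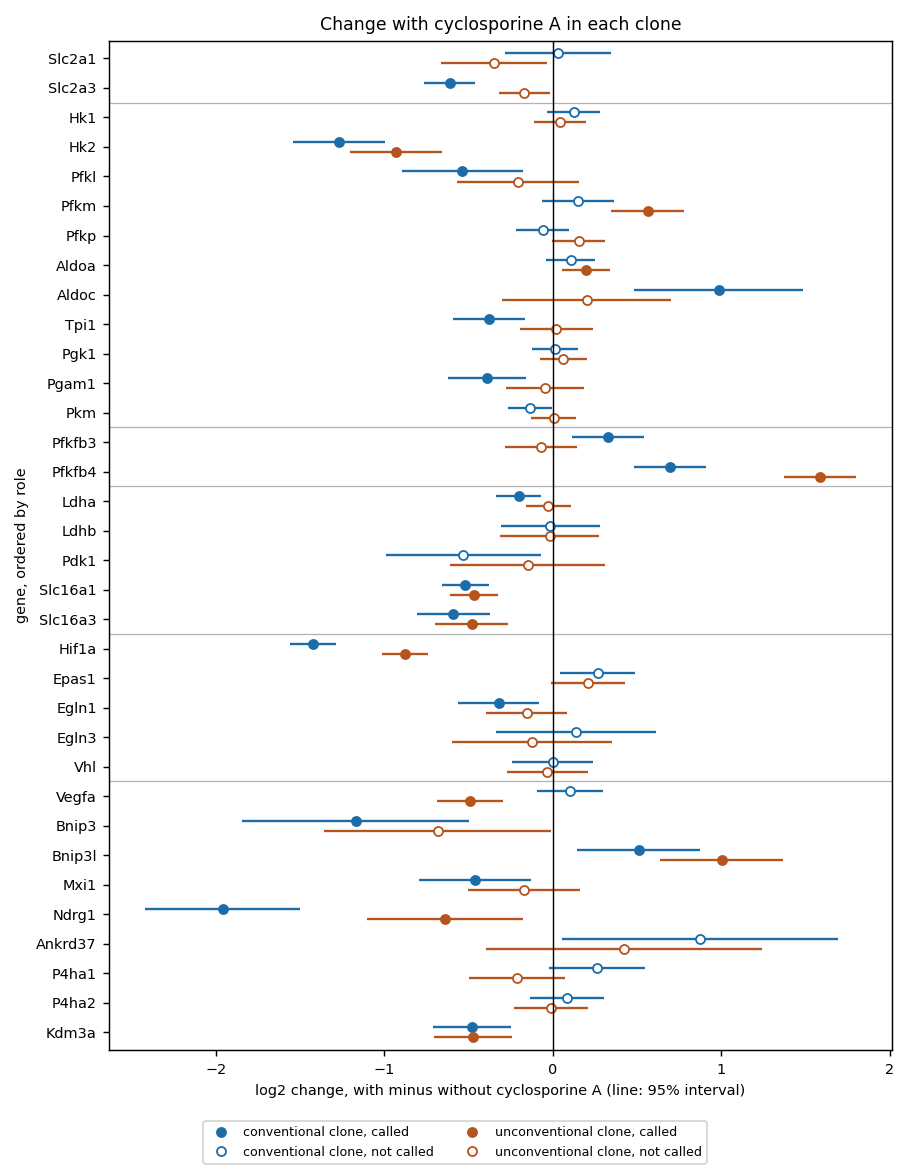
Log2 change with cyclosporine A (x axis) for each of the 34 genes in the conventional (blue) and the unconventional clone (orange), with the 95% interval from the limma fit; filled points passed an adjusted p under 0.05. Hif1a, Hk2, Slc16a1, Slc16a3, Ndrg1 and Kdm3a are lower in both clones, and Pfkfb4 and Bnip3l are higher in both.

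Glucose enters T cells mainly through the transporters GLUT1 (Slc2a1) and GLUT3 (Slc2a3). In the conventional clone Slc2a1 read 12.23, 11.83, 12.02 and 12.28 with anti-CD3 alone and 12.35, 11.86, 11.99 and 12.29 with the drug. The ranges coincided, and the change of 0.03 (SE 0.15, 95% interval -0.28 to 0.35) was not called. Unconventional arrays read 10.52, 10.63, 10.61 and 11.19 without and 10.34, 10.09, 10.45 and 10.67 with the drug, again with overlap (-0.35, adjusted p = 0.11). Slc2a3 fell in the conventional clone, from 11.40, 11.35, 11.39 and 11.28 to 10.79, 10.68, 10.75 and 10.76. These arrays did not overlap, and the change was -0.61 (SE 0.07, adjusted p = 1e-06). In the other clone Slc2a3 ranged from 8.29 to 8.65 and, with the drug, from 8.30 to 8.36, a change of -0.17 that was not called (adjusted p = 0.11).

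Hexokinases trap glucose in the cell as its phosphate, and Hk2 is the inducible form. Its 4 conventional arrays read 11.52, 11.48, 11.51 and 11.53 with anti-CD3 alone and 10.49, 9.90, 10.11 and 10.46 with the drug. Its unconventional arrays read 10.40, 10.89, 10.93 and 11.05 without and 9.75, 9.97, 9.99 and 9.85 with it. No array with the drug reached any array without it in either clone, and Hk2 fell 2.41-fold (change -1.27, SE 0.13, adjusted p = 1.3e-07) and 1.90-fold (change -0.93, SE 0.13, adjusted p = 1.5e-05). The constitutive Hk1 was not called in either clone by its brightest probe set (0.13 and 0.04). A second Hk1 probe set, at a mean of 9.37 beside 13.32, changed by 0.23 in the conventional and 0.43 in the unconventional clone (adjusted p = 0.0043), so the probe sets disagree for the latter. Which probe set reflects the Hk1 transcript was not tested, and the brightest need not be the one.

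Phosphofructokinase, the committed step, is built from liver (Pfkl), muscle (Pfkm) and platelet (Pfkp) subunits. Pfkl was lower with the drug in the conventional clone (-0.54, adjusted p = 0.021), with overlapping arrays that ran from 10.09 to 10.61 and from 9.38 to 10.25. Pfkm rose in the unconventional clone, from 8.34, 8.85, 8.85 and 9.03 to 9.34, 9.32, 9.37 and 9.30 (0.56, SE 0.10, adjusted p = 0.00027). There every array with the drug lay above every array without it, while the conventional clone showed 7.93 ± 0.07 and 8.09 ± 0.08 (SD, n = 4; 0.15, not called). Pfkp was not called in either clone.

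Further down the route the aldolase Aldoc rose in the conventional clone, from 8.50, 7.54, 7.82 and 8.84 to 9.57, 8.90, 8.65 and 9.54 (0.99, SE 0.24, adjusted p = 0.0027). The groups touched, since the lowest array with the drug (8.65) lay under the highest without it (8.84). The main aldolase Aldoa changed by 0.11 in that clone (not called) and by 0.20 in the unconventional clone (adjusted p = 0.041). The triose phosphate isomerase Tpi1 (-0.38) and the phosphoglycerate mutase Pgam1 (-0.39) were lower in the conventional clone alone by the calls, at adjusted p = 0.0066 and 0.0088, and changed by 0.02 and -0.04 in the other. The phosphoglycerate kinase Pgk1 and the pyruvate kinase Pkm were not called in either clone. Among the 11 measured enzymes, 4 fell and 1 rose in the conventional clone (45.5% called, against 31.4% of all genes), and 1 fell and 2 rose in the unconventional clone (27.3% against 24.9%, near the background). Pgk1 and Pgam1 each had 2 probe sets with identical values, and signal from near-identical gene copies cannot be separated on them. For Pgam1 the probe set used was not among these, and all gave -0.39 in the conventional clone.

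The PFKFB enzymes set the level of the bisphosphate that activates phosphofructokinase. Pfkfb4 rose in both clones. It read 5.59, 5.47, 5.66 and 5.71 without and 6.31, 6.30, 6.26 and 6.33 with the drug in the conventional clone. The unconventional arrays read 6.42, 6.24, 5.91 and 6.42 without and 7.97, 7.98, 7.63 and 7.76 with the drug. Neither pair of groups overlapped, and the rises were 1.62-fold (change 0.69, SE 0.10, adjusted p = 1.5e-05) and 3.00-fold (change 1.59, SE 0.10, adjusted p = 5.2e-10). Pfkfb3, the form induced in many activated and hypoxic cells, rose in the conventional clone from 8.24 ± 0.13 to 8.57 ± 0.10 (SD, n = 4; 0.33, adjusted p = 0.018). It stood at 7.78 ± 0.26 and 7.71 ± 0.07 (SD, n = 4) in the unconventional clone (-0.07, not called).

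Lactate leaves or enters cells through the monocarboxylate transporters MCT1 (Slc16a1) and MCT4 (Slc16a3). Slc16a1 read 11.43, 11.44, 11.44 and 11.43 in the conventional clone, and 10.91, 10.95, 10.86 and 10.95 with the drug. Its unconventional values were 10.82, 11.02, 10.92 and 10.96, and 10.36, 10.37, 10.51 and 10.60 with the drug. Slc16a3 read 11.88, 11.73, 11.87 and 11.87 and then 11.46, 10.97, 11.21 and 11.37 with the drug in the conventional clone. In the unconventional clone it read 11.26, 11.61, 11.50 and 11.69, and 11.00, 10.94, 11.00 and 11.20 with the drug. Both transporters fell without overlap of the arrays in both clones. Their changes were -0.52 and -0.59 in the conventional clone (adjusted p = 3.2e-06 and 0.00012) and -0.47 and -0.48 in the unconventional clone (adjusted p = 2.1e-05 and 0.0013). Ldha, which reduces pyruvate to lactate, fell by 0.20 on the log2 scale in the conventional clone (adjusted p = 0.02) and changed by -0.03 in the other. The kinase Pdk1, which inhibits pyruvate dehydrogenase, was not called in either clone (-0.53, adjusted p = 0.076, and -0.15).

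Hif1a had the lowest adjusted p of all 34 genes for the drug in the conventional clone. It fell from 12.17, 12.08, 12.14 and 12.16 to 10.66, 10.70, 10.68 and 10.81, a 2.68-fold difference (change -1.42, SE 0.07, adjusted p = 1.5e-12). The fall in the unconventional clone was from 11.33, 11.14, 11.15 and 11.24 to 10.40, 10.31, 10.24 and 10.39, or 1.84-fold (change -0.88, SE 0.07, adjusted p = 4.8e-09). The groups stood far apart in each clone, and the unconventional clone without the drug lay between the 2 conventional groups. The related subunit Epas1 (HIF-2α) was not called (0.27, adjusted p = 0.063, and 0.21). Of the oxygen sensors, Egln1 was lower in the conventional clone (-0.32, adjusted p = 0.038), with arrays from 9.08 to 9.64 without and 8.95 to 9.22 with the drug. Egln3 (0.14 and -0.12) and the ubiquitin ligase subunit Vhl (0.00 and -0.03) were not called. The 95% interval for Vhl reached from -0.24 to 0.24 in the conventional clone.

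Known HIF targets did not share one direction. Ndrg1, a stress-induced gene, read 9.59, 9.37, 9.60 and 9.82 in the conventional clone and 7.76, 7.24, 7.29 and 8.26 with the drug. Unconventional arrays were higher, at 10.46, 10.57, 10.52 and 11.06, and 10.19, 9.50, 9.76 and 10.62 with the drug. The first pair was fully separate (3.89-fold lower, change -1.96, SE 0.22, adjusted p = 4.6e-07), and the second overlapped (change -0.64, SE 0.22, adjusted p = 0.038). Leaving out any one of 5 arrays of the unconventional clone ended that second call, namely replicates 2, 3 and 4 without the drug and replicates 2 and 3 with it, as did quantile normalization and the robust fit (adjusted p up to 0.16).

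Bnip3 and Bnip3l encode related mitochondrial proteins that promote mitophagy, and both are induced by HIF in many cells. Bnip3 went from 11.80, 10.97, 11.27 and 11.98 to 10.87, 9.40, 9.88 and 11.21 in the conventional clone (-1.17, SE 0.32, adjusted p = 0.0074). In the unconventional clone it went from 11.17, 10.69, 10.99 and 11.48 to 10.45, 9.86, 10.28 and 11.02 (-0.68, SE 0.32, adjusted p = 0.15, not called). Bnip3l moved the opposite way, from 10.41, 9.50, 9.77 and 10.54 to 10.74, 10.36, 10.41 and 10.75 (0.51, SE 0.17, adjusted p = 0.03). In the unconventional clone it rose without overlap from 10.07, 9.91, 10.00 and 10.33 to 11.21, 10.92, 10.98 and 11.22 (1.00, SE 0.17, adjusted p = 0.00017). Second probe sets of both genes gave similar changes in the conventional clone, -1.25 for Bnip3 and 0.50 for Bnip3l. In the unconventional clone they gave -0.64 and 0.97. Whether any of these probe sets also picks up near-identical gene copies was not tested.

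Of the other targets, the histone demethylase Kdm3a was lower in both clones (-0.48 and -0.47, adjusted p = 0.0018 and 0.0028). The growth factor Vegfa fell in the unconventional clone alone by the calls, from 9.04, 8.93, 9.03 and 9.27 to 8.60, 8.42, 8.53 and 8.76 (-0.49, adjusted p = 0.00041). Its conventional arrays averaged 10.03 without and 10.13 with the drug. Mxi1, which antagonises MYC, was lower in the conventional clone (-0.46, adjusted p = 0.032). The collagen hydroxylase P4ha1 (0.26 and -0.21), P4ha2 and the ankyrin repeat gene Ankrd37 (0.87, adjusted p = 0.1, and 0.42) were not called in either clone. Of the 9 targets, 4 fell and 1 rose in the conventional clone (55.6% called, against 31.4% of all genes), and 3 fell and 1 rose in the unconventional clone (44.4% against 24.9%).

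Several calls ended when 1 array was left out of the fit. In the conventional clone, those of Pfkl, Egln1 and Mxi1 each ended when replicate 1 or 4 without the drug or replicate 2 or 3 with it was left out. The change was then as small as -0.37 for Pfkl (adjusted p = 0.09), -0.24 for Egln1 (adjusted p = 0.14) and -0.31 for Mxi1 (adjusted p = 0.13). Bnip3l ended without replicate 2 or 3 of the arrays without the drug, or 1 or 4 of those with it, and was as small as 0.33 (adjusted p = 0.14). Pfkfb3 ended without replicate 4 (0.27, no drug) or replicate 2 (0.28, with drug), and Ldha without replicate 2 (-0.18) or 3 (-0.17) of the arrays with the drug. In the unconventional clone the Aldoa call ended under 7 of the 8 such omissions, down to 0.17 (adjusted p = 0.12). The other 12 calls of the conventional clone and 9 of the unconventional clone, Hif1a, Hk2, Pfkfb4 and both lactate transporters among them, held under every alternative run.

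**Figure D3:**
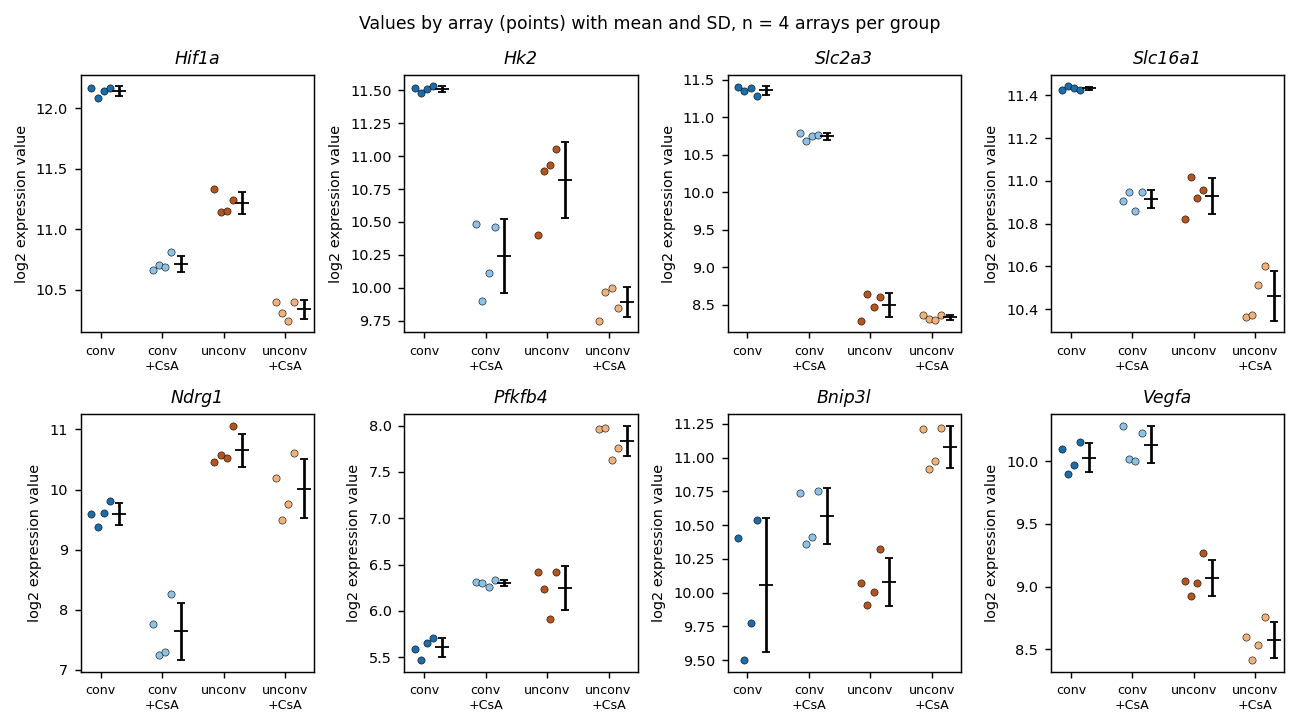
Log2 expression value (y axis) of 8 genes on each array (points) with the mean and SD of each group of 4 arrays beside them; conv and unconv are the clones and CsA is cyclosporine A. Hif1a, Hk2, Slc16a1 and Ndrg1 are lower with the drug in both clones, Slc2a3 is far lower in the unconventional clone, and Pfkfb4 is highest in the unconventional clone with the drug. Axes differ between panels and do not start at 0.

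The second question was whether the drug acted unequally on these genes in the 2 clones. The difference of the effects was called for 5 of 34 genes, 14.7%, against 16.3% of all genes, so the share was near the background. Hif1a fell less in the unconventional clone (difference 0.55, SE 0.09, adjusted p = 0.00025), as did Ndrg1 (1.32, SE 0.31, adjusted p = 0.0049). Slc2a3, which fell in the conventional clone and was not called in the other, had a difference of 0.44 (SE 0.10, adjusted p = 0.0042). Pfkfb4 rose more there (0.89, SE 0.14, adjusted p = 0.00015). Vegfa was the one with a negative difference (-0.59, SE 0.13, adjusted p = 0.003). For the lactate transporters the difference was small and not called, 0.05 for Slc16a1 (95% interval -0.15 to 0.25) and 0.11 for Slc16a3 (-0.20 to 0.42). Hk2 gave 0.34 (-0.04 to 0.72) and Kdm3a 0.01 (-0.32 to 0.33). Those for Tpi1 (0.40, adjusted p = 0.069), Pfkm (0.41, adjusted p = 0.061) and Aldoc (-0.79, adjusted p = 0.14) were not called, so these genes are not shown to respond differently in the clones. The changes with the drug in each clone are computed from separate arrays, but the difference is computed from the same arrays as both. All comparisons use the same estimate of a gene's spread, taken over all 16 arrays. The p-values of the 2 clones are therefore not independent.

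The third question was how the clones differed under each condition. With anti-CD3 alone, 13 of 34 genes (38.2%) were lower in the unconventional clone and 5 (14.7%) higher, against 21.7% and 20.3% of all genes, or 52.9% against 42.0% in either direction. With the drug, 12 (35.3%) were lower and 7 (20.6%) higher, against 23.0% and 21.3% of all genes, or 55.9% against 44.2% in either direction. Over all genes the median difference was itself -0.07 and -0.08, beside -0.25 and -0.08 for the 34. With anti-CD3 alone the largest differences were in Slc2a3, Aldoc and Slc2a1. With the drug they were in Aldoc, Slc2a3 and Ndrg1. Slc2a3 was 7.24-fold lower in the unconventional clone (difference -2.86, SE 0.07, adjusted p = 5.8e-17) and 5.32-fold lower with the drug. Slc2a1 was 2.56-fold lower (-1.36, SE 0.15, adjusted p = 3e-07) and 3.34-fold lower with the drug. Aldoc read 5.90, 6.10, 5.73 and 6.33 in the unconventional clone without the drug, all below the conventional arrays given above, and 6.11, 6.10, 6.14 and 6.51 with it. Its differences were -2.16 (adjusted p = 2.8e-07) and -2.95 (adjusted p = 2.3e-09). These comparisons share their arrays with those for the drug.

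Other genes were lower in the unconventional clone by less. With anti-CD3 alone they included Hif1a (-0.93, adjusted p = 4.5e-10), Vegfa (-0.96), Pfkp (-0.87), Hk2 (-0.69), Slc16a1 (-0.50), P4ha1 (-0.50), Pfkfb3 (-0.47) and Kdm3a (-0.45). The order of the 4 groups for Hif1a was conventional, unconventional, conventional with the drug and unconventional with the drug, and no neighbours in that order overlapped. Higher in the unconventional clone were Ndrg1 (1.06, adjusted p = 0.00055), Pfkm (0.83, adjusted p = 1.3e-06), Pdk1 (0.66, adjusted p = 0.02), Pfkfb4 (0.64, adjusted p = 3.3e-05) and Epas1 (0.40, adjusted p = 0.0048). With the drug, these 5 and also Bnip3l and Tpi1 were higher, at 2.38 for Ndrg1, 1.25 for Pfkm, 1.04 for Pdk1, 1.53 for Pfkfb4 and 0.34 for Epas1. Pdk1 arrays ran from 8.52 to 8.99 without the drug in the unconventional clone and from 7.56 to 8.45 in the conventional clone. Pdk1 fell short of the threshold without replicate 2 (0.50) or 3 (0.58) of the conventional or replicate 1 (0.57) of the unconventional arrays, and Slc16a3 (-0.32, adjusted p = 0.016) without that same replicate 1 (-0.24). With the drug, the Hk2 call (-0.35) ended without replicate 1 or 4 of either clone, down to -0.27. The Aldoa call (-0.18) ended without replicate 1 or 4 of the conventional or any of the 4 unconventional arrays, and the Bnip3l call (0.52) without replicate 2 or 3 of the conventional or 1 or 4 of the unconventional arrays, at changes down to -0.15 and 0.45. The enzymes Pgk1, Pkm and Ldha, among the brightest, were not called between the clones in either condition. Their differences lay between -0.11 and 0.08. For Hk1 the brightest probe set gave 0.08 with anti-CD3 alone and was not called, while the mean of its probe sets gave -0.38 (adjusted p = 0.00048). The second Hk1 probe set was lower in the unconventional clone with anti-CD3 alone (-0.83, adjusted p = 2.1e-06) and with the drug (-0.64, adjusted p = 4.1e-05). Hk1 is also named on 16 probe sets that carry several symbols. Whether Hk1 differs between the clones thus depends on the probe set.

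**Figure D4:**
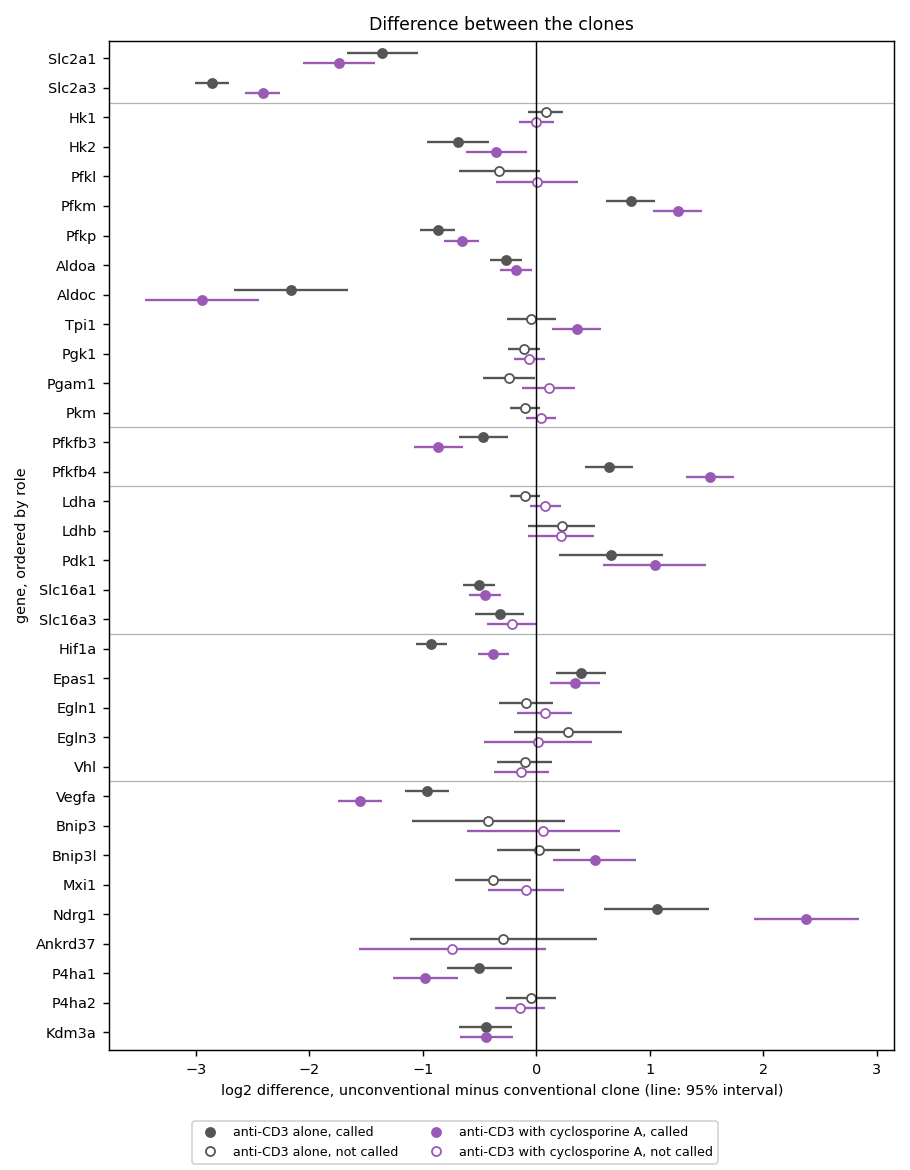
Log2 difference between the clones (x axis, unconventional minus conventional) for each of the 34 genes with anti-CD3 alone (grey) and with cyclosporine A (purple), with the 95% interval from the limma fit; filled points passed an adjusted p under 0.05. Slc2a1, Slc2a3, Aldoc and Vegfa lie far to the left and Ndrg1, Pfkfb4, Pfkm and Pdk1 to the right in both conditions.

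Genes of neighbouring routes that are not among the 37 were read from 7 further lists, beside 31.4% of all genes called with the drug in the conventional clone and 24.9% in the unconventional clone. Of 19 other glycolysis genes, mostly isozymes, 3 rose and 4 fell in the conventional clone with the drug, and 2 rose and 4 fell in the unconventional clone (36.8% and 31.6% called). Pfkfb2, a relative of Pfkfb3 and Pfkfb4, rose in both (0.38 and 0.49). In both clones Tigar, a bisphosphatase that slows glycolysis (-0.49 and -0.46), Adpgk, an ADP-dependent glucokinase (-0.44 and -0.41), and Minpp1 (-0.60 and -0.36) fell. Of 13 genes for the entry of pyruvate into mitochondria, 3 rose and 2 fell, then 2 rose and 1 fell (38.5% and 23.1%). The pyruvate dehydrogenase component Pdhx rose by 0.79 in the conventional clone (0.20, not called, in the other), and citrate synthase, Cs, and Pdhb rose by 0.23 each in the unconventional clone. The phosphatase Pdp1, which activates pyruvate dehydrogenase, rose by 1.68 in the conventional clone against 0.26, not called, in the other, and the difference between the clones was called (-1.43, adjusted p = 1.6e-06). Pyruvate carboxylase, Pcx, fell in both (-0.58 and -1.46). Of 7 pentose phosphate genes, 2 rose and 1 fell in each clone (42.9% in both), with the transaldolase Taldo1 at 0.39 and 0.48 and the transketolase Tkt at -0.35 in the conventional clone. The isomerase Rpia rose there (0.37) and fell in the unconventional clone (-0.28), where Pgls rose (0.40). Of 12 glycogen genes, 4 rose and 2 fell, then 5 rose and 1 fell (50% in both). The phosphorylase kinase subunit Phkb rose in both (0.49 and 0.69). The phosphoglucomutase named Pgm1 by the array fell most (-1.45 and -0.73), the glycogen phosphorylase Pygb rose in both (0.83 and 0.46), and the branching enzyme Gbe1 rose by 0.73 in the unconventional clone (0.06, not called, in the other).

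Of 8 other genes of the HIF pathway, 1 rose and 1 fell in each clone, 25% and no more than the background. Arnt, the partner of HIF-1α, fell by 0.29 on the log2 scale in the conventional clone (adjusted p = 0.0074), and Arnt2 went up there (0.39) and down in the unconventional clone (-0.51), where P4htm rose (0.31). Of 29 other genes reported as induced by hypoxia, 7 rose and 7 fell in the conventional clone, and 5 rose and 7 fell in the unconventional clone (48.3% and 41.4%). The lipid droplet gene Plin2 rose in both (1.33 and 1.33) and Narf in both (1.22 and 1.65), while Gpr146 fell in both (-2.22 and -1.15). Rbpj, the nuclear effector of Notch, fell from 10.69 to 8.26 in the unconventional clone and stood at 11.62 and 11.69 in the conventional clone. The mTOR inhibitor Ddit4 rose in both (1.07 and 1.35). Of 22 regulators, 7 rose and 3 fell, then 7 rose and 7 fell (45.5% and 63.6%). Myc, which drives glycolytic genes in activated T cells, went from 12.41 to 11.24 in the conventional clone (-1.17, adjusted p = 8.6e-12). It fell from 12.17 to 11.78 in the unconventional clone (-0.39, adjusted p = 5.1e-05), and the difference of the changes was called (0.78, adjusted p = 1.9e-06). Rptor, a component of the kinase complex mTORC1, rose in both (1.18 and 0.29). Txnip, which limits glucose uptake, rose in both clones (1.19 and 0.74), as did the MYC antagonists Mxd1 (0.91 and 1.18) and Mxd4 (0.79 and 2.08). Irf4, a receptor-induced factor, fell in both (-0.82 and -1.05).

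The spread of several hypoxia genes within a group followed the replicate number in the sample titles. Each number, 1 to 4, occurs once in every group, and the labels do not say what a number stands for. Ankrd37 read 7.82, 6.45, 7.19 and 8.02 on conventional arrays 1 to 4 with anti-CD3 alone and 8.79, 7.22, 7.71 and 9.26 with the drug. In the unconventional clone it read 6.96, 6.51, 7.04 and 7.82, and 7.58, 6.94, 7.43 and 8.07 with the drug. The array numbered 2 was the lowest and that numbered 4 the highest in all 4 groups, and the Bnip3 values given above show the same order of those arrays. Egln3 read 10.08, 9.04, 9.57 and 10.39 in the conventional clone without the drug, and its array 2 was also the lowest in all 4 groups. Array 2 was lowest in all 4 groups for 9 of the 34 genes, against 0.487% of all genes, and array 4 was highest in all 4 groups for 8, against 0.617%. Arrays 1 and 4 were the upper pair in all 4 groups for 5 of the 34, against 0.191%. These 3 counts were chosen after the values were seen.

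With group means removed, the replicate number accounted for a median of 56.2% of the remaining sum of squares over the 34 genes, against 23.4% over all genes. Among the 9 HIF targets the median was 78.9%, with 87.3% for Ankrd37 and 86.3% for Bnip3, and it was 82.7% for Egln3. The median was 15.7% for the other HIF pathway genes and 36.0% for the other hypoxia-induced genes, of which the carbonic anhydrase Car9 reached 80.5%. The number accounted for 4.57% in Slc2a3, 16.2% in Hk2 and 86.4% in Vegfa, so genes with called drug effects had low and high shares. The highest share of the 34 was 93.3%, in the phosphofructokinase subunit Pfkp, which was not called with the drug in either clone. The limma F test of the number terms, also chosen after seeing the values, called 5 of all genes (0.0251%). They were Ankrd37 (adjusted p = 0.0074), Bnip3 (adjusted p = 0.01), and 3 genes outside the list, Neil2, Tmem45a and Mrgprb3. At an unadjusted p under 0.05 it gave 1080 genes (5.42%) and 16 of the 34. Every group holds each number once, so each group mean averages over all 4 numbers.

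**Figure D5:**
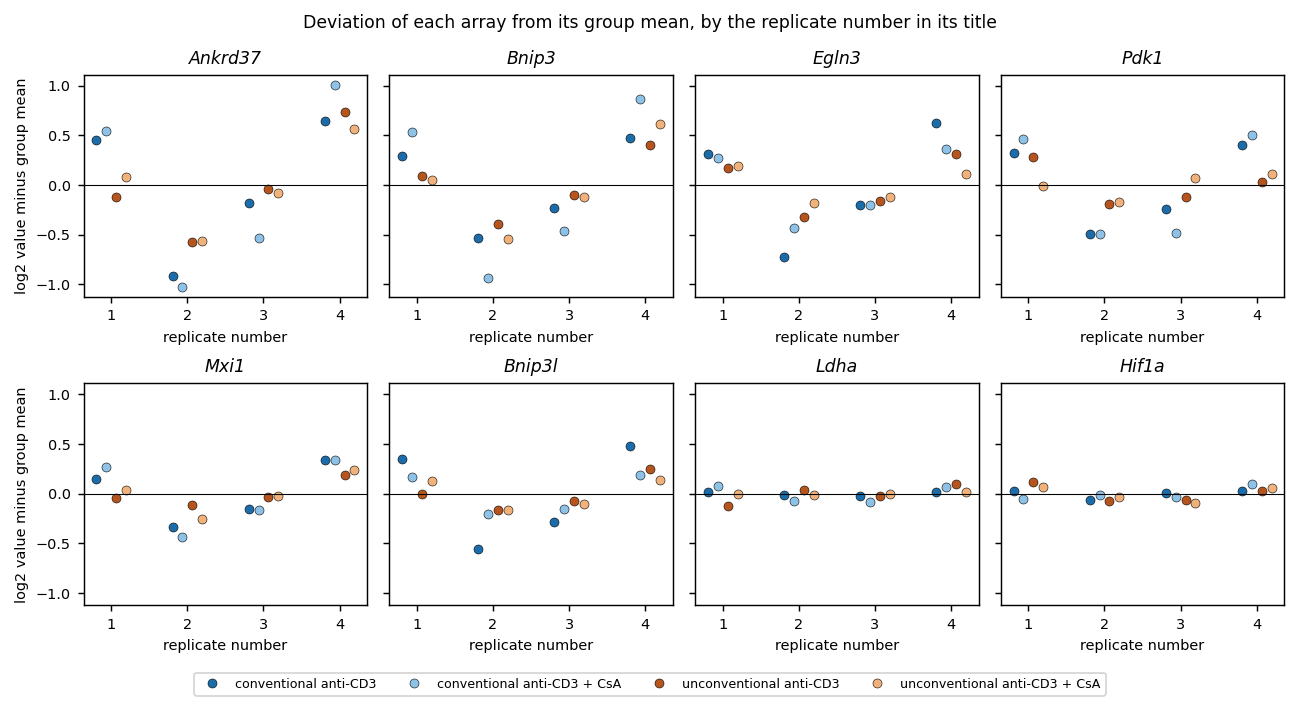
Log2 value minus the mean of its group (y axis) against the replicate number in the sample title (x axis), for 8 genes and the 4 groups (colours). Ankrd37, Bnip3, Egln3, Pdk1, Mxi1 and Bnip3l are lowest on the arrays numbered 2 in all 4 groups, while Ldha and Hif1a stay close to 0 on the same scale. Of their small spread within groups, the number accounted for 31.0% in Ldha and 56.5% in Hif1a, against a median of 23.4% over all genes. Neither gene was called for the number.

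The HIF dimer binds a short core, ACGTG or GCGTG, on either strand, and both were searched in the 250 bases before each gene's start in RefSeq's promoters of GRCm38.p6. The motifs share CGTG, and the palindrome CACGTG, which is also bound by MYC, holds ACGTG on both strands. Of the 34 measured genes, 30 had a promoter in the table and 28 of these held a core in at least 1 promoter, against 41.5% of all 27025 genes there. CG steps, which every core contains, numbered a median of 14 in the promoters of the measured genes and 6 in all promoters, so the shares are not of like sequences. Among genes lower with the drug in the conventional clone, 11 of 12 held a core, and among those not called 14 of 15, so the motif did not separate them. The promoters shown are those of genes that changed at least 2-fold with the drug in either clone and had an entry, since they let the motif be read beside the opposite changes of Pfkfb4 and the other 3. They are written 5′ to 3′ on the strand of the gene, with each core in capitals. Hk2 lies at chr6:82774455-82774704 (minus strand), Bnip3 at chr7:138909507-138909756 (minus strand), Pfkfb4 at chr9:108991652-108991901 (plus strand) and Hif1a at chr12:73907617-73907866 (plus strand).
Hk2: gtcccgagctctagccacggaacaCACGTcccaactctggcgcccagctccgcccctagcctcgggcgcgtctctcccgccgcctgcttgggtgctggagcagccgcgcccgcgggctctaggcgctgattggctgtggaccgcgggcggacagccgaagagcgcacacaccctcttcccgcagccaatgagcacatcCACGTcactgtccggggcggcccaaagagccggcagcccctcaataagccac
Bnip3: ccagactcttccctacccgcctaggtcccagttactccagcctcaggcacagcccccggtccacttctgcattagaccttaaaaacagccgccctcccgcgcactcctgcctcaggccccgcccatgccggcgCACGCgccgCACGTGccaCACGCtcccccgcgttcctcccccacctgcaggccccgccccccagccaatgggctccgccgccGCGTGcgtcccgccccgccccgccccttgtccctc
Hif1a: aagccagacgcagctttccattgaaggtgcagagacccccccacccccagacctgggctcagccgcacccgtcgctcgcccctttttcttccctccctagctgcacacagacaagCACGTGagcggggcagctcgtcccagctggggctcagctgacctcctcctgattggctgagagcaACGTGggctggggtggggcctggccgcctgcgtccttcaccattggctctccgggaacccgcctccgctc
Pfkfb4: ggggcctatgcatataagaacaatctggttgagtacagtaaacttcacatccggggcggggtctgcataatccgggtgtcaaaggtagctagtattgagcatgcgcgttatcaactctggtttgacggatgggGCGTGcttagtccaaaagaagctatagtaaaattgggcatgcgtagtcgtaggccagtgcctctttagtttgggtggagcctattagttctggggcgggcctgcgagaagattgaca
Hk2, which fell in both clones, held 2 separate cores. Bnip3, which fell in the conventional clone and followed the replicate number, held 4, one of them the palindrome. Hif1a, which fell in both, held 2 including the palindrome, and Pfkfb4, which rose in both, held 1. The starts of Hif1a and Pfkfb4 lie inside the annotated span of their genes. A match describes these letters and says nothing about binding.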

How the data were processed

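Total RNA of 16 samples was measured on Affymetrix whole-transcript arrays. The deposited values are log2 expression levels per probe set. The submitters' processing notes name RMA, Partek 6.2 and GCOS; settings are not given in any source used here. Symbols came from the platform annotation and were checked through Entrez IDs against RefSeq (GRCm38.p6). Of 28853 probe sets, 21789 carried 1 symbol, 1621 several and 5443 none here; those with 1 symbol were reduced to 19938 genes by the highest mean.

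One limma model (version 3.58.1, R 4.3.3) of 4 group means was fitted to all genes and all 16 arrays, with Benjamini-Hochberg adjustment over all genes; genes with an adjusted p under 0.05 were called. Intervals are at 95%. The residual degrees of freedom were 12. The fit was tested on simulated data. Array number limits the precision.

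The genes, lists and naming rules were chosen with earlier results of these data known. Full values are given for up to 2 called genes with the largest change per role and drug comparison, plus Hif1a, Hk2 and Slc2a1. Exceptions are Egln1, given by its ranges, and Pfkfb3, given by mean and SD. Up to 3 called genes per neighbouring list and drug comparison are named, by changes or group means only. Vegfa and the genes shown by replicate number were added after their values were seen. Alternatives covered normalization, a filter on dim genes, probe set choice, variance moderation, array weights, the groups in the fit, a replicate block and leaving out each array.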

Additional observations from a re-analysis of the deposited data

Results flagged for a closer look

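Of 136 groups of 4 arrays examined among the 34 genes, 4 held an array far from its group by Dixon's criterion, where chance gives about 1 in 20 groups. Slc2a1 read 11.19 on replicate 4 of the unconventional clone with anti-CD3 alone, with the next array at 10.63. Aldoc read 6.512 on replicate 4 of the unconventional clone with the drug, with the next at 6.14. For Slc16a3 replicate 2 of the conventional clone with anti-CD3 alone was low, at 11.73 against 11.87. P4ha2, which is dim, read 4.518 on replicate 3 of the unconventional clone with the drug, against 4.76.

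The effect of the drug differed between the clones for 5 genes by limma's test of the difference (unconventional minus conventional). The difference was 0.55 for Hif1a and 1.32 for Ndrg1, which fell less in the unconventional clone, and 0.44 for Slc2a3, which was not called there. It was 0.89 for Pfkfb4, which rose more there. It was -0.59 for Vegfa, which fell there and averaged 0.10 higher, not called, in the conventional clone.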

How the results depend on the processing

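Across the alternatives, counts of called genes among the 34 kept within 1.5 times of those reported except for the difference of the drug effects between the clones, where 5 became 8 with only genes at or above the median mean and 8 with the replicate block. Replicate numbers did not meet the rule for pairing the samples over all genes, since only 3 of 16 same-numbered correlations of deviations passed 0.1 (range -0.13 to 0.28). In 10 of these 16 comparisons the best match was the same number. The comparisons reuse the same arrays, and what the arrays of a number have in common was not tested. With the block the other counts were 21 and 13 for the drug in the conventional and unconventional clone, and 22 and 20 between the clones without and with it. The block added calls and ended none: Pdk1, Ankrd37 and P4ha1 for the drug in the conventional clone (adjusted p = 0.0077, 0.00036 and 0.03), and Slc2a1 and Bnip3 in the unconventional clone (0.015 and 0.0014). For the difference it added Aldoc, Bnip3l and P4ha1 (0.023, 0.036 and 0.014). Leaving out each array in turn gave 14 to 19, 9 to 12, 5 to 7, 16 to 20 and 16 to 20 genes for the drug in each clone, its difference and the clones without and with the drug. For the neighbouring lists the ranges were 42 to 48, 38 to 48, 27 to 31, 59 to 65 and 62 to 69. One value reversed: Hk1 between the clones with anti-CD3 alone was -0.38 with the mean of its probe sets, and its probe sets disagree. For the drug difference, a fit on only the groups compared was not run, since it needs all 4. Dim probe sets (Ldhb, P4ha2) limit what could be seen.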
